A study of Mus musculus with 40 samples.

Results

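DNA transposons are the class of transposable element (TE) that moved through the genome by being cut out and pasted in as DNA, and the copies left in mouse chromosomes are relics that no longer move. They were followed here across 40 RNA-seq libraries of mouse bone marrow cells. The members are the subfamilies of the deposited TE count table whose class is given as exactly DNA, and there are 197 of them among 1146 TE subfamilies, or 17.2%. For comparison the table holds 680 subfamilies of class LTR, 158 of class LINE and 35 of class SINE, and a further 21 listed as DNA? were left out because their class is marked as uncertain.

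A complete DNA transposon carries a gene for a transposase, the enzyme that binds the inverted repeats at the element's ends and moves it. Most relics in mammals are short internal deletions that never coded for the enzyme and were copied by transposases made elsewhere. In mammals the relics belong mainly to the hAT superfamily, with names such as Charlie, Tip100 and Blackjack, and to the Tc1/Mariner superfamily, abbreviated TcMar, with names such as Tigger, Tc2 and Mariner. Because these copies are old and lie in introns, untranslated regions and the surroundings of genes, reads from them can come from longer host transcripts as well as from promoters of their own. Dnmt3a is a DNA methyltransferase that places new methylation marks, methylation is one of the marks by which cells keep TEs silent, and Sting is the adaptor protein of the pathway that senses DNA in the cytosol.

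The sorted populations were long-term haematopoietic stem cells (LT-HSC), short-term haematopoietic stem cells (ST-HSC), megakaryocyte-erythroid progenitors (MEP), and a mixture of granulocyte-macrophage with common myeloid progenitors (CMP/GMP). Each was taken from bone marrow labelled DNMT3A knockout or Wild Type, with 4 libraries per group except 3 for wild-type MEP. Bone marrow cells carrying the receptor c-kit, which marks stem and progenitor cells together, were measured as Wild Type (2 libraries), DNMT3A knockout (2), STING knockout (2) and DNMT3A/STING double knockout (3). The knockout is described as Dnmt3a f/f, Mx1-Cre, in which an interferon-responsive promoter drives the recombinase, so that cells other than those sampled can also lose the gene. The age of the animals, the time after induction and how the STING knockout was made are not given in the labels, and the labels name no animals, so p-values measure the spread between these libraries, which may in part be technical.

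Gene reads numbered between 3439743 and 47663942 in the 32 libraries with an assigned gene total, TE reads between 392006 and 3639178 in all 40, and DNA transposon reads between 17912 and 167869. Levels are given as CPM, reads per 1000000 gene reads, or as TE-CPM, reads per 1000000 TE reads. The widest 95% Wilson interval of the DNA share of TE reads ran from 45.04 to 46.4 per 1000 (replicate 2 of MEP Dnmt3a KO), so counting error is small beside the differences between libraries. Replicate 1 of wild-type LT-HSC, replicate 2 of LT-HSC Dnmt3a KO and replicates 2, 3 and 4 of MEP Dnmt3a KO stood apart. They had the fewest genes detected, 10706 to 12970 against 13425 to 15068 in the other sorted libraries, and the highest share of SINE reads, 617 to 698 per 1000 TE reads against 502 to 608. Dnmt3a reads of some sorted libraries went against the label, with 119 CPM in the library labelled LT-HSC Dnmt3a KO 3, above wild-type replicates 2, 3 and 4, and 41.9 in the library labelled MEP Dnmt3a KO 2, above wild-type replicates 3 and 4. In c-kit+ cells Dnmt3a was 41.8 to 50.8 in the groups labelled as lacking it and 77.4 to 96.8 in the others, and Tmem173, the gene of Sting, was 9.61 to 11.7 against 43.8 to 65.1. Markers of LT-HSC, CMP/GMP and MEP were, among the sorted populations, highest in those so labelled, and the c-kit+ libraries also held macrophage markers, at a summed 312 to 1420 CPM against 0.888 to 81.8 in sorted cells.

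DNA transposons gave 2947194 reads, or 4.50% of all TE reads. Of the 197 subfamilies 4 had no read in any library, 105 had reads in all 40, and 177 passed the filter on low counts in at least one comparison. The 20 that never passed held 0.0559% of the class's reads. Families whose names begin with hAT counted 119 subfamilies in 4 families and held 74.1% of DNA reads, families beginning with TcMar counted 60 in 5 and held 24.6%, and the remaining 18 subfamilies in 4 families held 1.27%. A subfamily's count sums every copy of it in the genome and is not divided by length, so the shares compare amounts of reads and not the activity of a copy.

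hAT-Charlie was the largest family, with 73 subfamilies and 62.7% of DNA reads, and its most abundant member, URR1B, supplied 16.2% of it. TcMar-Tigger followed with 44 subfamilies and 22.4%, led by MER2, a non-coding Tigger relative that supplied 28.1% of the family. hAT-Tip100 had 31 subfamilies and 8.90% of DNA reads, and a single member, FordPrefect, made up 71.9% of them. The other families were small: hAT-Blackjack held 1.64%, TcMar-Tc2 1.17%, TcMar-Mariner 0.836%, the hAT family without a suffix 0.830%, subfamilies with no family assigned 0.732%, PiggyBac 0.316%, TcMar without a suffix 0.218%, MULE-MuDR 0.135% and MuDR 0.0870%. TcMar-Pogo, with the single subfamily MER132, had 2 reads in all and was not tested.

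The 10 most abundant subfamilies together took 53.5% of DNA reads. URR1B and URR1A took 10.2% and 9.98%, FordPrefect 6.40%, MER2 6.29%, MER20 4.48%, RCHARR1 4.01%, MER5A 3.49%, Tigger7 3.43%, MER5B 2.73% and Charlie1a 2.53%. URR1A, URR1B, RCHARR1 and RMER30 carry names given to elements found in rodents, and these 4 subfamilies held 26.1% of DNA reads.

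**Figure D1:**
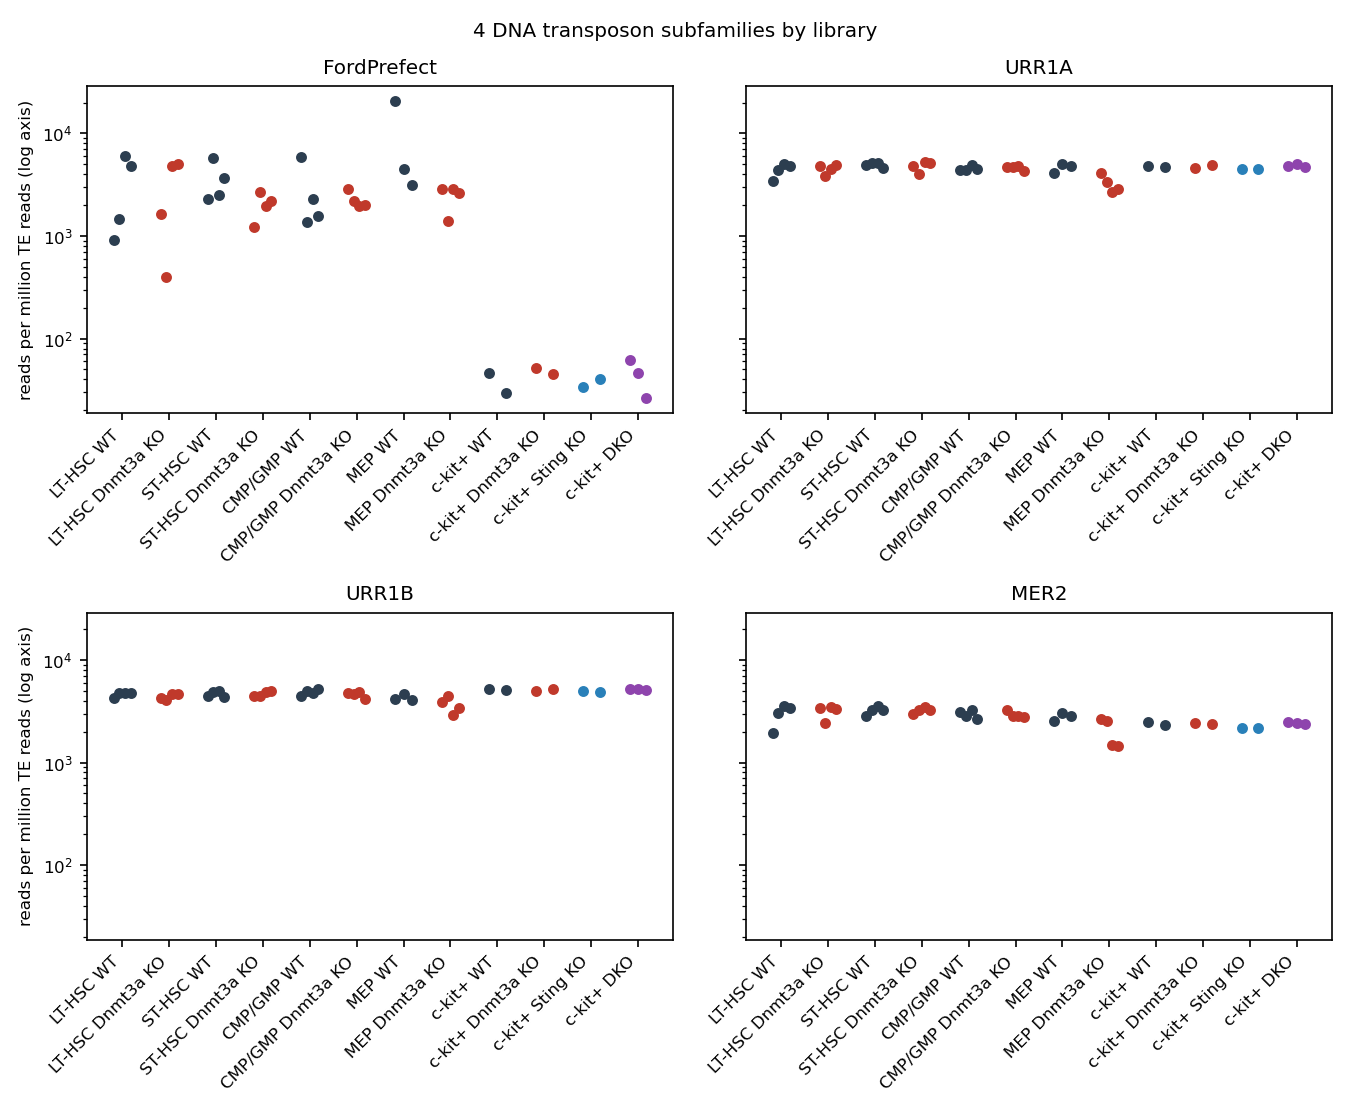
FordPrefect, URR1A, URR1B and MER2 in TE-CPM (reads per 1000000 TE reads, log axis) in the 12 groups, with 1 point per library, dark for wild-type, red for Dnmt3a KO, blue for Sting KO and purple for double KO (DKO). FordPrefect spans 26.2 in a c-kit+ library to 20777 in a wild-type MEP library, while the other panels stay between 1446 and 5251.

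The rodent-named subfamilies made up a larger share of DNA reads in every c-kit+ library, at 30.1% or more, than in any sorted library, at 28.4% or less. The c-kit+ groups also had smaller SDs. Their share was 30.5% ± 0.0762 (SD, n = 2) in wild-type, 30.4% ± 0.460 (n = 2) in Dnmt3a KO, 30.7% ± 0.204 (n = 2) in Sting KO and 30.6% ± 0.345 (n = 3) in double KO c-kit+ cells. In wild-type sorted cells it was 24.9% ± 0.992 in LT-HSC (n = 4), 26.1% ± 1.08 in ST-HSC (n = 4), 27.0% ± 1.98 in CMP/GMP (n = 4) and 23.6% ± 4.38 in MEP (n = 3). The Dnmt3a KO means of the sorted populations, 25.3% ± 0.802, 26.4% ± 0.774, 26.3% ± 0.982 and 22.9% ± 1.33 in the same order (n = 4 each), lay within 1 SD of these wild-type means, and the wild-type and Dnmt3a KO ranges overlapped in every sorted population. The lowest share, 18.6%, was in replicate 1 of wild-type MEP, the library with the most FordPrefect reads. FordPrefect, which counts in the total, took 0.0670% to 0.152% of DNA reads in c-kit+ and 0.915% to 36.0% in sorted libraries. Its part in the difference was not tested. c-kit+ and sorted libraries were not a designed comparison, so these levels are given as a description.

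The URR1 elements, short hAT-Charlie relics, were among the most even members. URR1B lay between 2892 and 5221 TE-CPM in the 31 sorted libraries, with a median of 4636, and between 4865 and 5236 in c-kit+ cells. URR1A spanned 2709 to 5251 in sorted and 4466 to 4984 in c-kit+ cells. Replicate 3 of MEP Dnmt3a KO was the lowest library for both. MER2 ranged from 1446 to 3594 in sorted and from 2148 to 2468 in c-kit+ cells, and RMER30 from 499.99 to 1302 and from 794 to 918. Over the 59 subfamilies that averaged at least 5 CPM and had reads in every sorted library, the highest sorted library exceeded the lowest by a median of 4.83-fold.

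FordPrefect, a hAT-Tip100 element, varied far more than these elements, with few reads in c-kit+ cells and a wide range in the sorted populations. In the 9 c-kit+ libraries it gave 26.2 to 62.2 TE-CPM (median 45.01), and the lowest of these rested on 33 reads, with a 95% Wilson interval of 18.6 to 36.7. In the 31 sorted libraries it ran from 395 in replicate 2 of LT-HSC Dnmt3a KO to 20777 in replicate 1 of wild-type MEP, with a median of 2498. Every sorted library was above every c-kit+ library, the medians differed 55.5-fold, and the lowest sorted library was 6.35-fold above the highest c-kit+ library.

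Within populations FordPrefect differed from library to library. Wild-type LT-HSC had 914, 1468, 6071 and 4821 TE-CPM, and Dnmt3a KO had 1646, 395, 4842 and 5061. The genotypes covered the same range there. Wild-type CMP/GMP had 5895, 1360, 2287 and 1582, and Dnmt3a KO had 2873, 2182, 1977 and 2003. Wild-type MEP had 20777, 4551 and 3142, and Dnmt3a KO had 2857, 1390, 2872 and 2611. All MEP Dnmt3a KO libraries were below all wild-type ones per TE read, but per gene read the groups overlapped, with 1008, 131 and 131 CPM in wild-type and 63.5, 158, 311 and 246 in Dnmt3a KO. In ST-HSC wild-type libraries had 2300, 5775, 2498 and 3637 and Dnmt3a KO libraries 1218, 2679, 1944 and 2186, which overlap. None of these differences was called in edgeR's quasi-likelihood test: with TE subfamilies adjusted together, and with gene library sizes except in ST-HSC, the log2 change was −0.95 in MEP (adjusted p = 0.441), −0.78 with a standard error (SE) of 0.327 in ST-HSC (adjusted p = 0.847), −0.56 in CMP/GMP (adjusted p = 0.622) and −0.13 in LT-HSC (adjusted p = 0.998). In LT-HSC of both genotypes replicates 3 and 4 were above replicates 1 and 2. Xist was at 947 to 2293 CPM in the former, which were read as female, and at 0.380 to 7.44 in the latter. The highest library of CMP/GMP and of MEP was replicate 1 of wild-type, with Xist at 3.30 and 2.38, so this split did not hold there. Sex and replicate number go together in LT-HSC, and their part was not tested.

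FordPrefect alone set the top of the class's range. It was 36.0% of the DNA reads of wild-type MEP replicate 1 and 12.2% of those of wild-type CMP/GMP replicate 1, against 0.0670% to 0.152% in c-kit+ cells. Without it, DNA reads per 1000 TE reads ran from 30.8 to 47.5 over all libraries, and wild-type MEP replicate 1 fell from the top of the range into it, at 37.0. Among the 62 subfamilies that averaged at least 5 CPM, the highest ratios of the sorted to the c-kit+ median after FordPrefect were 7.34 for MER135, 4.52 for Kanga1b and 3.03 for Charlie7, and the lowest were 0.370 for Charlie4z and 0.398 for MER58C. That average is set mainly by the sorted libraries, which outnumber the c-kit+ ones, so subfamilies high only in c-kit+ cells were less likely to be among the 62.

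Reads of the whole class per 1000 gene reads also follow the amount of all TE reads. Wild-type LT-HSC had 5.34, 1.94, 2.97 and 3.14, and Dnmt3a KO LT-HSC had 1.78, 5.32, 4.02 and 2.58. The means were 3.35 ± 1.43 and 3.43 ± 1.57 (SD, n = 4 each), and a two-sided exact permutation test on log2 values gave p = 0.971 (difference 0.01; 3 comparisons were tested, adjusted p = 0.971). Wild-type CMP/GMP had 1.86, 1.61, 1.54 and 1.68, and Dnmt3a KO had 1.19, 1.34, 1.87 and 1.41. The latter were mostly lower but overlapped, with means of 1.45 ± 0.295 against 1.67 ± 0.135 (log2 difference −0.22, exact p = 0.229, adjusted p = 0.343).

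In MEP the Dnmt3a KO libraries were spread on both sides of the wild-type ones. Wild-type MEP had 2.80, 1.41 and 1.76 DNA reads per 1000 gene reads, and Dnmt3a KO had 0.921, 5.21, 3.64 and 3.45. Replicate 1 was below every wild-type library and replicates 2 to 4, those with few gene reads, few genes detected and many SINE reads, were above every one. The means were 3.31 ± 1.77 (n = 4) and 1.99 ± 0.723 (n = 3), a log2 difference of 0.54, which turned to −0.33 per TE read, where the Dnmt3a KO libraries had 41.5, 45.7, 33.7 and 36.7 per 1000 and the wild-type ones 57.8, 49.2 and 42.2. Without FordPrefect these became 38.6, 44.3, 30.8 and 34.1 in Dnmt3a KO and 37.0, 44.6 and 39.0 in wild-type libraries. Groups of 4 and 3 cannot give an exact p below 0.0571, so no test was made.

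**Figure D2:**
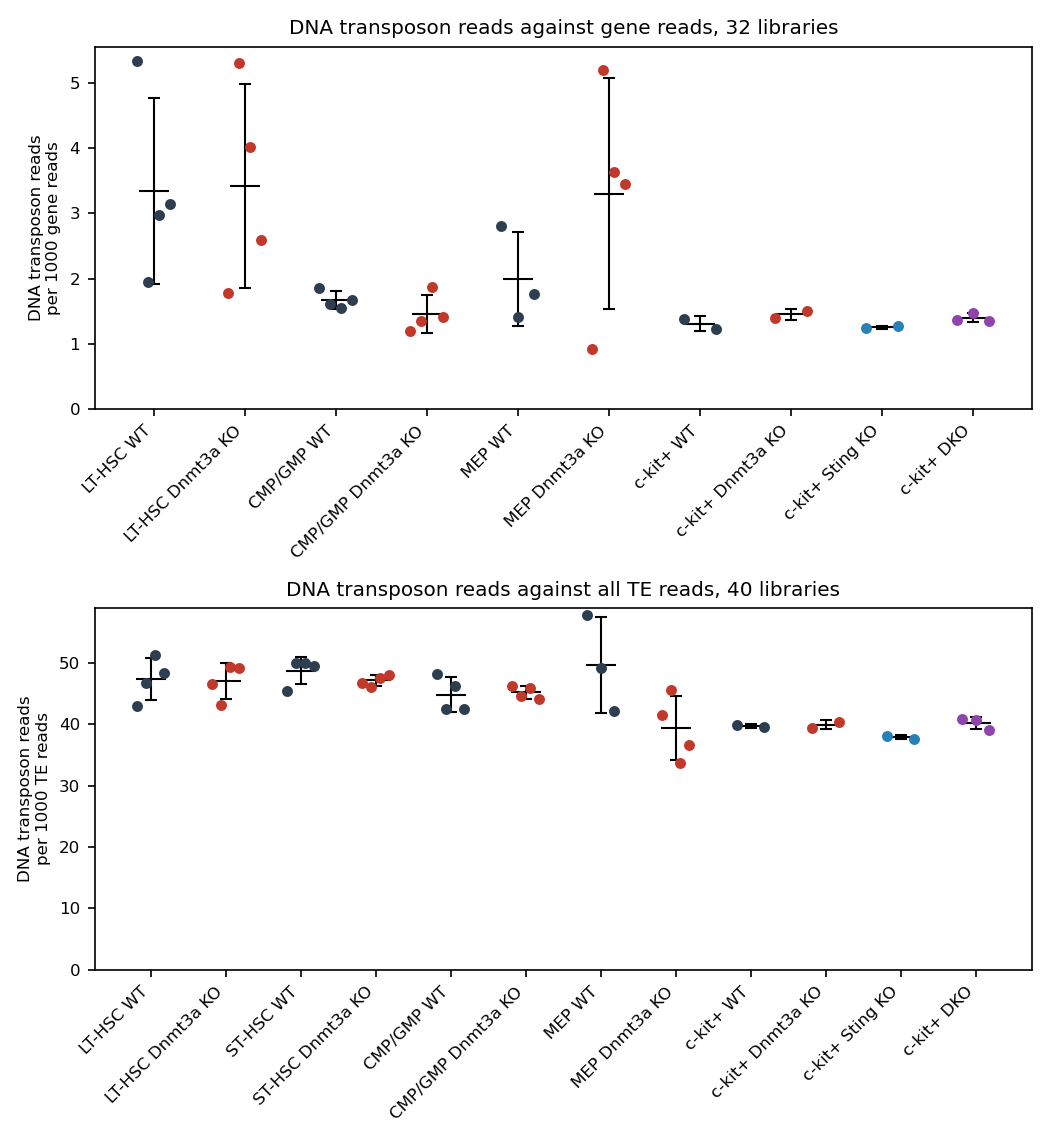
DNA transposon reads in each library by group, per 1000 gene reads (no value for ST-HSC, whose gene totals were not assigned) and per 1000 TE reads, with 1 point per library, a horizontal line for the group mean and bars of 1 SD. The 32 libraries with gene totals span 0.921 to 5.34 per 1000 gene reads, while all 40 lie between 33.7 and 57.8 per 1000 TE reads.

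As a share of TE reads the class was steadier, spanning 1.71-fold over all libraries against 5.79-fold per gene read. In LT-HSC the share was 47.4 ± 3.47 per 1000 in wild-type and 47.1 ± 2.91 in Dnmt3a KO libraries (n = 4 each, exact permutation p = 0.943, adjusted over 4 comparisons 0.943). In ST-HSC it was 45.5, 50.1, 49.97 and 49.5 in wild-type and 46.8, 46.1, 47.6 and 48.1 in Dnmt3a KO libraries. Wild-type replicate 1 was the lowest of all and the other 3 were above every Dnmt3a KO library (log2 difference −0.05, exact p = 0.257, adjusted p = 0.514). In CMP/GMP the shares were 44.8 ± 2.83 and 45.2 ± 1.01 (n = 4 each, exact p = 0.743, adjusted p = 0.943).

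The c-kit+ groups were close together, with all 9 libraries between 37.7 and 40.9 DNA reads per 1000 TE reads. Per 1000 gene reads wild-type cells had 1.39 and 1.23, Dnmt3a KO 1.39 and 1.51, Sting KO 1.24 and 1.27, and double KO 1.37, 1.47 and 1.35. Both Dnmt3a KO values were above both wild-type values, by 0.15 on the log2 scale, and the difference was 0.01 per TE read. Every double KO library was above both Sting KO libraries, by 0.16 per gene read and 0.09 per TE read. Both Sting KO libraries, at 38.2 and 37.7 per 1000 TE reads, had the lowest shares of the c-kit+ set and did not overlap the wild-type libraries at 39.96 and 39.5. Groups of 2 and 3 allow no exact p under 0.2, so none of these class values was tested. Macrophage markers moved with genotype in these libraries, at a summed 1306 to 1420 CPM in wild-type, 522 to 559 in Dnmt3a KO, 312 to 331 in Sting KO and 337 to 506 in double KO cells. Eosinophil markers did too, at 3849 to 4124, 1250 to 1695, 1497 to 1832 and 1933 to 2852 in the same order, and stromal markers were at 116 to 132, 13.4 to 36.99, 67.1 to 100.3 and 26.3 to 77.7. Their part in the TE values was not tested.

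Across subfamilies, no DNA transposon was called between Dnmt3a KO and wild-type libraries in any sorted population, where calls were made at an adjusted p under 0.05 over all TE subfamilies. In LT-HSC 0 of 163 tested DNA subfamilies were called, against a background of 0% of 904 TE subfamilies, 1 had an unadjusted p under 0.05, and DESeq2 also called 0. In ST-HSC the count was 0 of 169 (background 0% of 944), with 12 at an unadjusted p under 0.05 and 0 by DESeq2. In CMP/GMP it was 0 of 158 (background 0% of 893), with 7 unadjusted and 1 by DESeq2, which called 0.672% of 893 TE subfamilies. In MEP it was 0 of 157 (background 0% of 858), with 33 unadjusted and 11 by DESeq2, which called 5.16% of the 659 TE subfamilies to which it gave an adjusted p, 116 of them DNA. edgeR called nothing in the whole TE table either.

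The median log2 change of the DNA subfamilies followed that of all TEs. It was 0.05 in LT-HSC, where the median over all TE subfamilies was also 0.05, 0.01 against −0.02 in ST-HSC, −0.17 against −0.20 in CMP/GMP and 1.04 against 0.83 in MEP. In c-kit+ cells it was 0.14 against 0.16. ST-HSC was scaled by TE reads, which by itself keeps the median over all TEs small. In bulk RNA a higher share of cells that carry such transcripts and more of them per cell cannot be told apart.

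**Figure D3:**
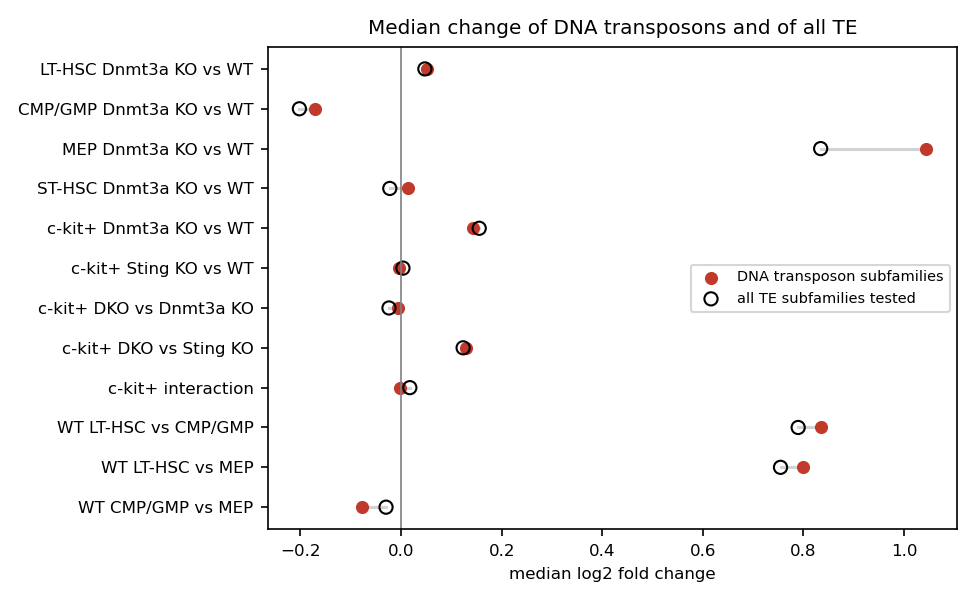
Median log2 fold change of the tested DNA subfamilies and of all tested TE subfamilies in each of the 12 comparisons, with gene library sizes except in ST-HSC. Filled points are DNA subfamilies and open points all TE subfamilies, and the MEP genotype comparison shows the widest gap, 1.04 against 0.83.

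No large family was called either. hAT-Charlie had 29866 ± 483 TE-CPM in wild-type and 29104 ± 454 in Dnmt3a KO LT-HSC (n = 4 each), and scaled by gene reads its log2 change was 0.00, with a 95% interval from −1.06 to 1.06. In ST-HSC, scaled by TE reads, the interval was far narrower, from −0.10 to 0.13 around a change of 0.01. In CMP/GMP the change was −0.19 (−0.52 to 0.14), in MEP 1.17 (−0.14 to 2.47, adjusted p = 0.269 in edgeR) and in c-kit+ cells 0.15 (−0.05 to 0.35). TcMar-Tigger gave 0.16, 0.05, −0.15, 1.01 and 0.14 in the same order. hAT-Tip100, the family of FordPrefect, had changes of −0.50 in MEP and in ST-HSC, −0.44 in CMP/GMP and −0.03 in LT-HSC, none of them called. The MEP and CMP/GMP values rest on replicate 1 of wild-type in each population, at 1063 CPM against 178 and 180 in the other wild-type MEP libraries and at 270 against 88.6, 109 and 106 in CMP/GMP. Without that library the change was 0.93 in MEP (edgeR adjusted p = 0.352) and 0.08 in CMP/GMP (adjusted p = 0.971). No DNA family of the 12 tested was called in LT-HSC, ST-HSC, CMP/GMP or MEP (background 0% of 51, 55, 50 and 48 families), with 0, 1, 1 and 2 at an unadjusted p under 0.05 and 0, 0, 1 and 0 by DESeq2, which called 1.96% of 51 TE families in CMP/GMP. Of all TE families 0, 3, 2 and 7 had an unadjusted edgeR p under 0.05 in the same populations. The lowest unadjusted p values were those of TcMar-Mariner in CMP/GMP (log2 change −0.66, edgeR adjusted p = 0.164) and of PiggyBac in MEP (2.70, adjusted p = 0.261).

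**Figure D4:**
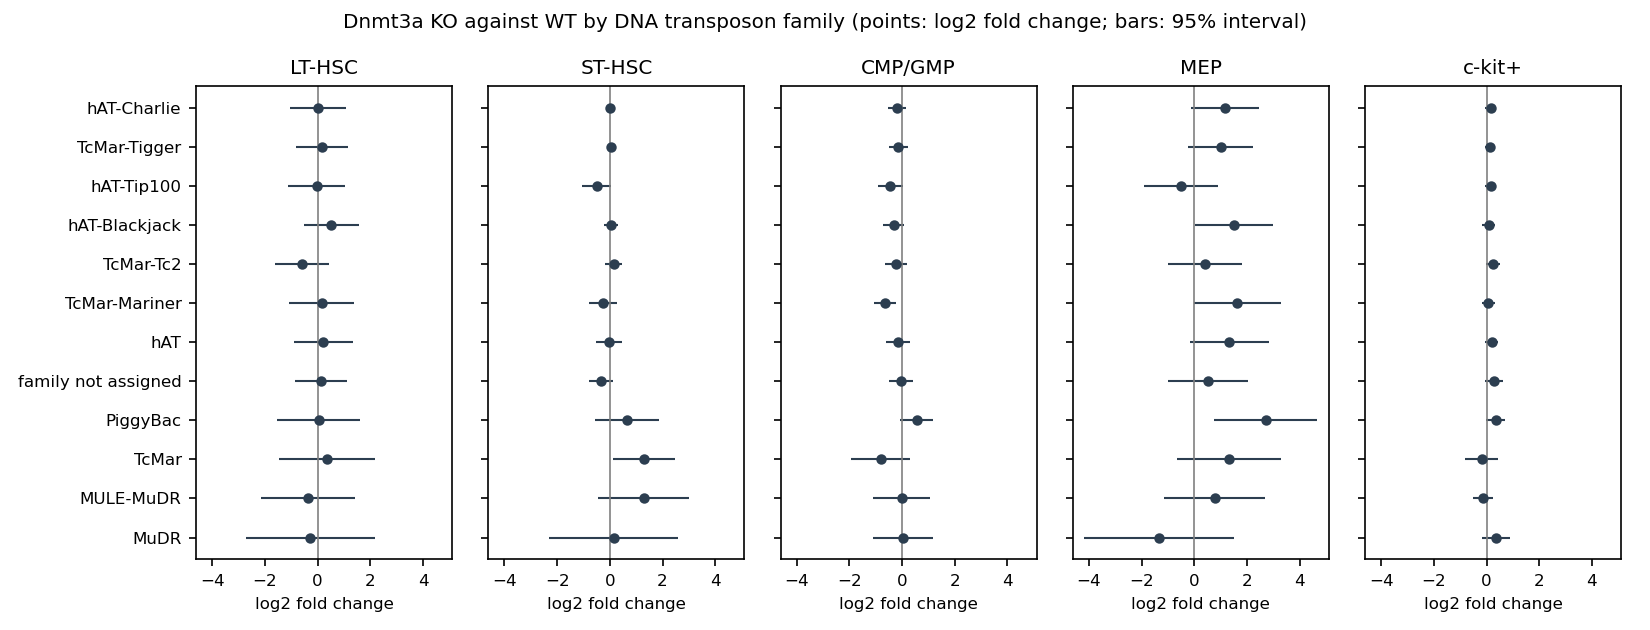
Log2 change of each DNA family on loss of Dnmt3a in the 5 cell populations, with 95% intervals from the edgeR fits of family sums. hAT-Charlie spans −1.06 to 1.06 in LT-HSC and −0.10 to 0.13 in ST-HSC, and no family passed the adjusted threshold in any of the 5.

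The subfamilies with the lowest p values are given as values, since none was called. In CMP/GMP, Tigger14a, a TcMar-Tigger element, had 4.48, 3.82, 2.14 and 3.48 CPM in wild-type and 1.04, 0.778, 1.82 and 1.23 in Dnmt3a KO libraries. The groups did not overlap (log2 change −1.51, SE 0.405, edgeR adjusted p = 0.306). MARNA, the most abundant TcMar-Mariner element, had 8.59, 9.90, 7.65 and 10.9 against 4.63, 5.64, 6.52 and 5.47, again without overlap (−0.73, adjusted p = 0.587). Charlie2a was the other way round and overlapped, with 2.19, 1.24, 2.47 and 1.34 in wild-type and 2.93, 2.14, 5.29 and 3.60 in Dnmt3a KO cells (0.95, adjusted p = 0.622).

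In MEP the lowest p values belonged to MER58C, MER45B and Tigger13a, at log2 changes of 2.89, 2.96 and 2.59 and an edgeR adjusted p of 0.270 for each. MER58C, a hAT-Charlie element, had 9.94, 7.61 and 10.5 CPM in wild-type and 3.97, 96.8, 78.9 and 69.4 in Dnmt3a KO libraries. Replicate 1 of the knockout was below the wild-type libraries and the other 3 were far above. The same subfamily was high in replicate 1 of wild-type LT-HSC at 66.8, where the other wild-type libraries had 8.38 to 10.4, and in replicate 2 of Dnmt3a KO LT-HSC at 84.4, where the others had 5.11 to 12.7. Per gene read, high MER58C in LT-HSC and MEP thus accompanied the 5 libraries with few gene reads, few genes detected and many SINE reads, in both genotypes. Beyond these populations it did not: per TE read the c-kit+ median of MER58C was above the sorted one. The c-kit+ libraries had 18713 to 19514 genes detected and 496 to 523 SINE reads per 1000 TE reads.

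Tigger13a showed the same libraries. It had 13.1, 8.16 and 7.94 CPM in wild-type MEP and 7.13, 50.3, 75.0 and 75.9 in Dnmt3a KO MEP, while replicate 1 of wild-type LT-HSC had 48.6 and replicate 2 of Dnmt3a KO LT-HSC had 79.1, against 10.6 to 16.9 in the other LT-HSC libraries. MER45B, of hAT-Tip100, was high in MEP Dnmt3a KO replicates 2 to 4, at 26.2, 28.6 and 33.5 against 1.11 to 5.03 in the other MEP libraries, but it was 3.44 and 0.473 in those LT-HSC libraries. MER44C, a Tigger element, had 79.1 and 71.1 in MEP Dnmt3a KO replicates 3 and 4 and 0.291, a single read, in replicate 2. Those 3 libraries therefore did not share every high subfamily.

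The MEP counts rested on replicate 1 of the Dnmt3a KO. Without it 61 DNA subfamilies were called higher and 13 lower of 151 tested, in a table of which 44% of 827 TE subfamilies were called, and 7 DNA families were called higher and 1 lower of 12 (58.7% of 46 TE families). When the same 6 libraries were scaled by TE reads, 10 were called higher and 20 lower of 156 (15.5% of 838), and the median change fell from 1.37 to 0.19. The 3 Dnmt3a KO libraries that remain are those with few gene reads, few genes detected and many SINE reads, and the part of this in the calls was not tested. Replicates 3 and 4 among them were close to each other. Their log2 gene values correlated at 0.986, against 0.420 to 0.687 in the other pairs of the Dnmt3a KO group. They may therefore not count as independent libraries.

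In LT-HSC the lowest unadjusted p was that of Kanga1b, a TcMar-Tc2 element. Wild-type libraries had 56.5, 14.4, 10.8 and 12.8 CPM and Dnmt3a KO libraries 7.48, 13.4, 3.57 and 9.01 (log2 change −1.50, SE 0.677, edgeR adjusted p = 0.998), and the groups overlapped. Tigger10 had 12.9, 4.28, 5.34 and 4.91 against 1.30, 0.768, 2.98 and 4.59 (−1.55), and MamRep4096, a hAT element, had 6.17, 1.08, 0.673 and 0.938 against 0.116, 0, 0.970 and 0.0563 (−3.005, both adjusted p = 0.998). Both also overlapped.

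In ST-HSC values are in TE-CPM. Replicates 3 and 4 of the Dnmt3a KO were close to each other and may not count as independent libraries. Their log2 TE values correlated at 0.996, against 0.894 to 0.940 in the other pairs of that group. Charlie10 had 130, 272, 155 and 152 in wild-type and 82.4, 55.8, 48.4 and 58.4 in Dnmt3a KO libraries, without overlap (log2 change −1.51, SE 0.345). MER44B, a Tigger element, had 516, 521, 587 and 557 against 384, 231, 386 and 393, also without overlap (−0.64). MER97b, of hAT-Tip100, was found as 0, 0, 0 and 2 reads in wild-type and 10, 88, 17 and 26 reads in Dnmt3a KO libraries, and a count of 0 in those wild-type libraries allows up to 1.25 to 3.57 TE-CPM. All 3 had an edgeR adjusted p of 0.647. MER97b passed the filter on low counts only through the Dnmt3a KO libraries, where it was higher. Its relative MER97a had 4.76, 9.61, 20.8 and 26.7 against 64.3, 40.7, 88.2 and 89.7, without overlap (log2 change 2.19, adjusted p = 0.647).

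Whether the effect of Dnmt3a loss differed between LT-HSC, CMP/GMP and MEP was tested with an edgeR F-test of the interaction. It called 0 of 179 DNA subfamilies (background 0% of 1015 TE subfamilies), with 33 at an unadjusted p under 0.05, and 0 of 12 families (background 0% of 63), with 3 unadjusted. The lowest unadjusted p, 0.00192, was that of Tigger15a (adjusted p = 0.243). Over all TEs 167 subfamilies and 8 families had an unadjusted p under 0.05. DESeq2 was not run for this test. Without replicate 1 of MEP Dnmt3a KO, 36 of 179 DNA subfamilies and 18% of 1014 TE subfamilies were called.

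In c-kit+ cells no DNA subfamily of 161 tested was called on loss of Dnmt3a (background 0.328% of 916 TE subfamilies), on loss of Sting (0.218%), in double KO against Dnmt3a KO (0.109%) or against Sting KO (0.328%), or in the interaction, which asks whether the Dnmt3a effect depends on Sting (0.437%). Counts at an unadjusted p under 0.05 were 9, 4, 4, 10 and 2 in that order, and DESeq2 called 0 in each. Over all TE subfamilies the unadjusted counts were 124, 54, 48, 77 and 43. These comparisons share libraries. The median log2 changes were 0.14, 0.00, −0.01, 0.13 and 0.00, against 0.16, 0.00, −0.02, 0.12 and 0.02 for all TE subfamilies. No DNA family of 12 was called in any of the 5 (background 0%, 2.17%, 2.17%, 2.17% and 2.17% of 46), with 0, 1, 0, 2 and 1 at an unadjusted p under 0.05 and 0 by DESeq2. Of all 46 families 5, 5, 2, 5 and 3 had an unadjusted p under 0.05.

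The c-kit+ subfamilies with the lowest p values are also given as values. MER44C had 2.85 and 2.60 CPM in wild-type, 4.53 and 4.12 in Dnmt3a KO, 2.66 and 3.99 in Sting KO, and 3.60, 3.21 and 2.96 in double KO cells. Per gene read both Dnmt3a KO libraries were above all others (log2 change against wild-type 0.67, SE 0.214, edgeR adjusted p = 0.192). hAT-N1_Mam had 1.60 and 1.10 in wild-type and 2.28 and 2.15 in Dnmt3a KO cells (0.73, adjusted p = 0.250).

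On loss of Sting, MER96B, of hAT-Tip100, had 3.21 and 4.42 against 6.40 and 5.03 in wild-type cells (log2 change −0.54, edgeR adjusted p = 0.555), and the double KO libraries had 6.03, 4.62 and 5.52. Per gene read both Sting KO libraries were the lowest of the 9. Tigger17 had 1.32, 1.25 and 1.98 in double KO against 2.63 and 2.44 in Dnmt3a KO cells (−0.70, adjusted p = 0.663), and MER117 had 3.66, 3.27 and 3.29 in double KO against 2.36 and 2.38 in Sting KO cells (0.52, adjusted p = 0.446). Neither pair of groups overlapped. Both Dnmt3a KO libraries and replicate 1 of the double KO had Xist above 1810 CPM and the other 6 under 1, so sex differs between these groups, and a term for sex called 0 DNA subfamilies in the comparisons where it could be fitted.

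Between wild-type populations, DNA transposon reads per gene read were higher in LT-HSC than in CMP/GMP. All 4 wild-type LT-HSC libraries, at 1.94 to 5.34 per 1000 gene reads, were above all 4 wild-type CMP/GMP libraries, at 1.54 to 1.86 (log2 difference 0.91, two-sided exact permutation p = 0.0286, the smallest that 4 against 4 can give, adjusted over 3 comparisons p = 0.0857), so the difference did not pass after adjustment. Per 1000 TE reads the log2 difference was 0.08 (exact p = 0.257, adjusted p = 0.514), with overlap. LT-HSC exceeded MEP by 0.72 per gene read and was 0.06 below it per TE read, and these were not tested. Replicates 2 and 4 of wild-type CMP/GMP were close to each other and may not count as independent libraries. Their log2 TE values correlated at 0.991, against 0.955 to 0.965 in the other pairs of that group.

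Among 173 DNA subfamilies tested between wild-type LT-HSC and CMP/GMP, 1 was called higher in LT-HSC (background 0.518% of 965 TE subfamilies) and 1 lower (0.207%), 57 had an unadjusted p under 0.05, and 152 had a positive change, with a median of 0.83 against 0.79 for all TEs. Of all 965 TE subfamilies 378 had an unadjusted p under 0.05. DESeq2 called 43 higher and 1 lower, with 36.5% of 926 TE subfamilies called. The subfamily called higher was Kanga1b. The wild-type LT-HSC values given above, from 10.8 to 56.5 CPM, were all above the CMP/GMP values of 3.69, 4.93, 2.59 and 4.14 (log2 change 2.46, SE 0.509, edgeR adjusted p = 0.0421). MEP libraries had 7.56, 6.33 and 5.63, between those populations, and c-kit+ libraries 0.640 to 1.53. Without replicate 1 of wild-type LT-HSC the change was 1.52 (adjusted p = 0.0267), and with TE library sizes it was 1.52 and not called (adjusted p = 0.108).

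The subfamily called lower in LT-HSC was MER97a. It had 1, 0, 0 and 2 reads in wild-type LT-HSC and 40, 130, 11 and 90 reads in wild-type CMP/GMP, or 1.20, 2.73, 0.331 and 2.19 CPM. The 2 LT-HSC libraries at 0 allow up to 0.0951 and 0.0721 CPM. Pooled, CMP/GMP had 271 reads in 155257452 gene reads and LT-HSC 3 in 139076518, a ratio of 80.9 (CMP/GMP over LT-HSC) with an exact 95% interval of 27.4 to 395 that covers counting error only (edgeR adjusted p = 0.0421). MEP libraries had 51, 8 and 8 reads. MER97a passed the filter on low counts through CMP/GMP, where it was high, and not through LT-HSC. Its call and ratio are therefore given as a description. Among Dnmt3a KO libraries, replicate 3 of LT-HSC had 74 reads and the others 0, 1 and 8, and MEP replicates 3 and 4 had 90 and 147 while replicates 1 and 2 had none. c-kit+ libraries had 0 to 2 reads.

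Both calls were narrow. Each lost its call when any one wild-type CMP/GMP library was left out (adjusted p between 0.0677 and 0.169), and each kept its direction. Kanga1b also lost it without wild-type LT-HSC replicate 4 or MEP replicate 3 or 4, and MER97a without LT-HSC replicate 3 or 4 or MEP replicate 3 or 4. With close pairs of libraries summed, neither was called.

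**Figure D5:**
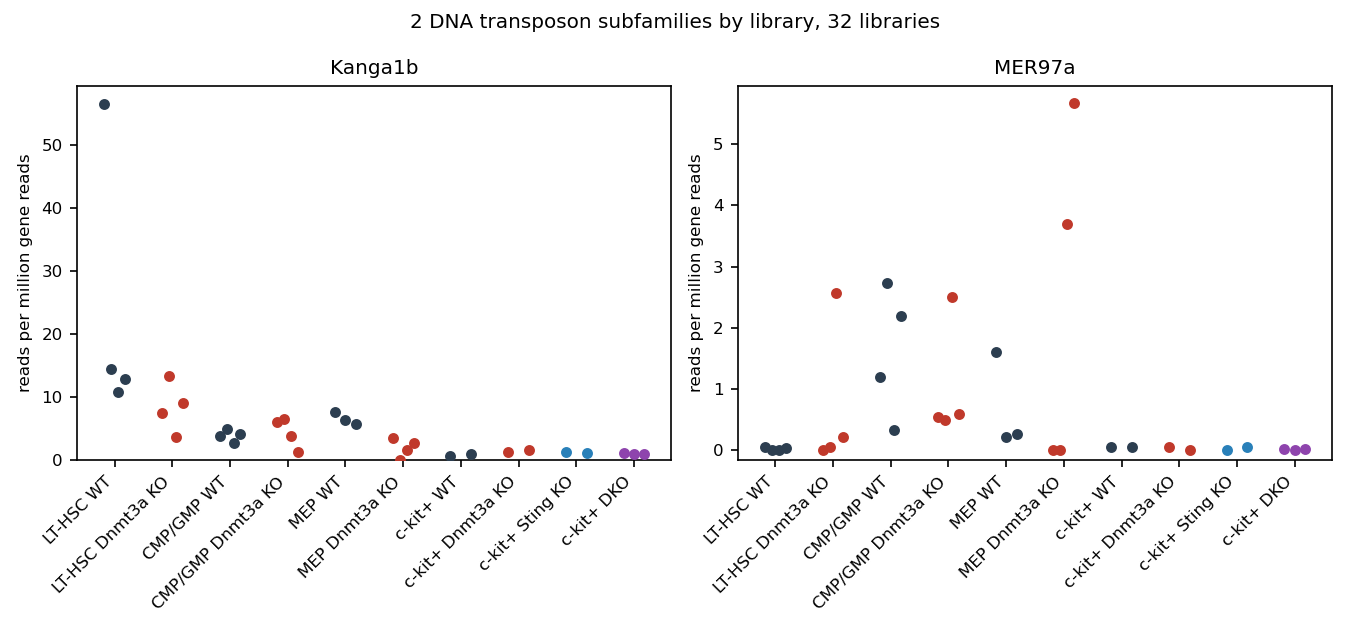
Kanga1b and MER97a in CPM (reads per 1000000 gene reads) in every library with a gene total, by group, with 1 point per library on linear axes that differ between the panels. Wild-type LT-HSC libraries are all above wild-type CMP/GMP for Kanga1b and all below for MER97a.

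Of the 12 families, all had a positive change in wild-type LT-HSC against CMP/GMP and 1, TcMar without a suffix, was called (background 5.26% of 57 TE families). An unadjusted p under 0.05 was found for 8 of the 12 and for 26 of all 57 TE families, and DESeq2 called 8 (55.1% of 49 TE families). With TE library sizes 0 families were called. Nearly all reads of that family, 94.7%, are from MER121, a conserved element shared by mammals. LT-HSC had 30.5, 6.05, 1.66 and 9.42 CPM and CMP/GMP 1.89, 2.52, 1.05 and 2.31, which overlap through replicate 3 of LT-HSC (log2 change 2.45, SE 0.659, edgeR adjusted p = 0.0267). It was not called without LT-HSC replicate 1 (1.34, adjusted p = 0.112), with TE library sizes (1.46, adjusted p = 0.278) or without any one CMP/GMP library. Nor was it called with close pairs of libraries summed. TcMar-Tc2, the family of Kanga1b, had a change of 1.20 (SE 0.364, adjusted p = 0.0506), with 88.7, 30.5, 31.2 and 41.9 in LT-HSC against 18.6, 20.8, 16.7 and 18.04 in CMP/GMP. Those groups did not overlap.

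Without replicate 2 of wild-type LT-HSC, the library with the lowest TE level of its group, 55 DNA subfamilies were called higher and 1 lower of 172 between LT-HSC and CMP/GMP, where 39.9% of 953 TE subfamilies were called, and 8 of 12 families (49.1% of 57 TE families). With TE library sizes the same libraries gave 0 of each (0.522% of 957 TE subfamilies and 1.72% of 58 families).

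Between wild-type LT-HSC and MEP no DNA subfamily of 173 was called (background 0.622% of 965), 41 had an unadjusted p under 0.05 and DESeq2 called 27 (21.3% of 817 TE subfamilies). Of all 965 TE subfamilies 271 had an unadjusted p under 0.05. The median change was 0.80, against 0.75 for all TEs. None of 12 families was called either (background 1.75% of 57), with 7 unadjusted, against 25 of all 57, and 7 by DESeq2 (35.1% of 57). Without replicate 2 of wild-type LT-HSC, 29 subfamilies were called higher and 2 lower of 172 (23.9% of 953 TE subfamilies), with 7 of 12 families (47.4% of 57), and with TE library sizes the same libraries gave 0 higher and 2 lower (1.36% of 957) and 0 families. The values with the lowest p were those of MER97a (fitted log2 change −4.98, which depends on the prior count because LT-HSC holds 0 to 2 reads), of Charlie10, which had 10.1, 5.42, 5.05 and 5.50 CPM in LT-HSC against 1.47, 1.78 and 0.967 in MEP (2.002, edgeR adjusted p = 0.0840 for both), and of MER3, with 112, 41.1, 54.6 and 57.9 against 27.98, 20.3 and 24.2 (1.27, adjusted p = 0.0959). Charlie10 and MER3 did not overlap between these groups.

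Between CMP/GMP and MEP no DNA subfamily of 173 was called (background 0% of 965), 7 had an unadjusted p under 0.05 (43 of all 965), DESeq2 called 1 (0.423% of 945), and the median was −0.08 against −0.03. Arthur1B, a hAT-Tip100 element, came nearest. It had 2.70, 2.87, 3.10 and 2.90 CPM in CMP/GMP and 8.28, 11.99 and 12.2 in MEP, with no overlap and little spread within CMP/GMP (log2 change −1.92, SE 0.411, edgeR adjusted p = 0.0736). Its values in Dnmt3a KO MEP were 3.79, 28.8, 23.5 and 23.8. Ricksha_c, of MULE-MuDR, had 0.0901, 0.420, 0.662 and 0.463 against 2.16, 2.11 and 3.21, also without overlap (−2.62, adjusted p = 0.630). hAT-Tip100 as a family had a log2 change of −1.74 (adjusted p = 0.306), which was −0.35 without replicate 1 of wild-type MEP (adjusted p = 0.986). No family of 12 was called (background 0% of 57), 1 had an unadjusted p under 0.05 (4 of all 57), and DESeq2 called 0.

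Some transposases of such elements have become host genes. A list of 28 of them held the CENP-B and Pogo-related genes (Cenpb, Jrk, Jrkl, Pogk, Pogz and the Tigd genes), the recombinase genes Rag1 and Rag2, the PiggyBac-derived Pgbd1 and Pgbd5, the Harbinger-related Harbi1 and Naif1, the hAT-related Zbed genes and Gtf2ird2, and the Thap genes, which share the DNA-binding domain of the P element transposase. Of these 27 were in the gene table and 24 were tested in at least one comparison. Zbed3 was the most abundant by mean CPM, 46.5, followed by Cenpb, which encodes a centromere-binding protein, at 40.1 and Thap7 at 38.2.

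No gene of this list was called between genotypes: 0 of 19 in LT-HSC, 0 of 22 in CMP/GMP and 0 of 21 in MEP (background 0% of 12806, 13192 and 12412 genes), with 0, 2 and 4 at an unadjusted p under 0.05 and 0, 0 and 2 by DESeq2, which called 5% of 11215 genes in MEP. In c-kit+ cells it was 0 of 24 on loss of Dnmt3a (background 0.57% of 15953 genes, 0.307% higher and 0.263% lower) and on loss of Sting (0.777%, 0.213% higher and 0.564% lower), 0 in double KO against Dnmt3a KO (0.157%) and against Sting KO (0%), and 0 in the interaction (0.15%), with 4, 3, 1, 4 and 2 unadjusted and 1, 1, 0, 0 and 0 by DESeq2, which called 4.53% and 2.94% of genes in the first 2. Zbed3 had 23.5 and 22.4 CPM in wild-type and 15.6 and 13.96 in Dnmt3a KO c-kit+ cells (log2 change −0.64, SE 0.191, edgeR adjusted p = 0.166), without overlap. Over all genes 150, 1195 and 1618 had an unadjusted p under 0.05 in LT-HSC, CMP/GMP and MEP. In the c-kit+ comparisons 2613, 1838, 1262, 1847 and 1205 did, in the order above.

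Between wild-type populations 1 of 22 tested genes of the list was called in LT-HSC against CMP/GMP. There 4.23% of 14664 genes were called higher, so the count is near the background. The gene was Thap11 (chromosome 8, 105855132 to 105856950, plus strand, GRCm38), a regulator of transcription. LT-HSC had 31.2, 68.5, 67.1 and 63.4 CPM and CMP/GMP 18.4, 7.05, 16.5 and 5.96. The groups did not overlap (log2 change 2.07, SE 0.481, edgeR adjusted p = 0.0189). The call was lost without CMP/GMP replicate 2 (1.89, adjusted p = 0.0715) or 4 (1.88, adjusted p = 0.0610), which were close to each other. Against MEP, where 7.17% of genes were called higher in LT-HSC, it was again 1 of 22. This was Thap3 (chromosome 4, 151982639 to 151988997, minus strand), with 14.2, 35.2, 34.2 and 97.0 against 15.7, 8.91 and 6.36. Those groups overlap (1.90, SE 0.589, adjusted p = 0.0495), and the call was lost without any one library of the fit other than LT-HSC replicate 1. Between CMP/GMP and MEP 0 of 22 were called (background 3.47% of genes), with 2 at an unadjusted p under 0.05 (2408 of 14664 genes) and 2 by DESeq2 (10.5% of genes).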

How the data were processed

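The deposited gene and TE tables hold whole-number counts of reads per gene and per TE subfamily for each library, made by the authors from polyadenylated bone marrow RNA. Per the submitters' processing notes, Trim Galore 0.6.7, HISAT2, featureCounts 2.0.1, DESeq2 1.34.0 and mm10 were used. For the annotation, the strand setting and how multi-mapped reads were counted, the sources used here give nothing, and each of these can move counts of repeated sequence. Columns were matched to samples by name. The 8 gene columns that could not be matched to one sample were not used, so ST-HSC libraries have no gene total and are scaled by TE reads.

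Counts were tested with edgeR 4.0.16 (quasi-likelihood, R 4.3.3) after filterByExpr (minimum count 10, total 15), with gene library sizes and TMM factors, and p-values were adjusted by Benjamini-Hochberg over all TE subfamilies, families or genes. Each sorted population was fitted alone for genotype, all 9 c-kit+ libraries were fitted together, and the wild-type LT-HSC, CMP/GMP and MEP libraries in 1 fit. Class levels were compared with two-sided exact permutation tests in scipy 1.17.1 where both groups had 4 libraries. Intervals of log2 changes are 95% intervals from the edgeR fits, with SEs derived from the F statistic, and take in the spread between libraries. The other intervals are 95% Wilson or exact and, like the limit of 3 counts for a 0, cover counting error only. The edgeR test of TE subfamilies was run on simulated counts for the comparisons between groups, and not for the interactions.

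Named were every family, the 10 most abundant subfamilies, the rodent-named ones, up to 8 called in each direction and, where none was called, subfamilies among the 3 lowest p values. MER97a in ST-HSC, MER44C in MEP and the values of named subfamilies in further groups were added after their values were seen. The members and lists were chosen with earlier results of these data known. Alternatives were DESeq2 1.42.0, RLE factors, TE library sizes, no filter, a term for sex, a replicate block and leaving out each library. Summing close pairs of libraries, TE sizes with a library left out, the class without FordPrefect and the leave-outs and block of the transposase-derived genes were chosen after seeing the data.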

Additional observations from a re-analysis of the deposited data

Results flagged for a closer look

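Over 13 measures 89 checks were made, each of a single measure in a group of 4 libraries. In 9 of them a library lay far from the other 3, relative to the range of the 4 values. Chance alone gives about 1 in 20 per check. The checks share libraries and are not independent, so their number cannot be set against that rate. Replicate 1 of wild-type ST-HSC had 45.5 DNA reads per 1000 TE reads, against 49.5 to 50.1 in the others. The remaining values are reads per 1000000 TE reads. URR1B was 4294 in wild-type LT-HSC replicate 1 against 4770 to 4815, and Tigger7 was 1367 in wild-type LT-HSC replicate 2 against 1538 to 1572 and 1086 in LT-HSC Dnmt3a KO replicate 2 against 1556 to 1598. In replicate 1 of CMP/GMP Dnmt3a KO, MER2 was 3256 against 2809 to 2861 and MER5A 1625 against 1464 to 1487. MER5B was 1418 in wild-type ST-HSC replicate 4 against 1130 to 1170, RMER30 was 1302 in ST-HSC Dnmt3a KO replicate 2 against 948 to 993, and Charlie1a was 2010 in MEP Dnmt3a KO replicate 2 against 593 to 801.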

How the results depend on the processing

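DESeq2 called 1 DNA subfamily and 1 family in CMP/GMP, 11 subfamilies in MEP, 44 and 8 families in wild-type LT-HSC against CMP/GMP, 27 and 7 in LT-HSC against MEP, and 1 subfamily in CMP/GMP against MEP; of transposase-derived genes it called 2 in MEP, 1 in c-kit+ Dnmt3a KO, 1 in c-kit+ Sting KO, and 3, 4 and 2 between the populations in that order. TE library sizes gave 1 subfamily and 0 families for LT-HSC against CMP/GMP and 1 subfamily for LT-HSC against MEP. For LT-HSC against CMP/GMP, RLE factors gave 20, a sex term 28 and summed close pairs 0 subfamilies and 0 families. The c-kit+ Dnmt3a comparison fitted on its own gave 1. With TE sizes and a library left out the counts were 30 in MEP, 0 in LT-HSC against CMP/GMP and 2 in LT-HSC against MEP. The causes were not tested. Apart from DESeq2 and TE sizes with a library left out, the share of all TEs called was not computed for these settings. Such counts therefore do not show whether DNA transposons differed from other TEs.

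The replicate numbers are only shared numbers: in no comparison with 3 or more pairs did every pair correlate above 0.1, though all 4 libraries of LT-HSC were closest to their own number in CMP/GMP. The replicate block gave 5 subfamilies and 2 families for LT-HSC against CMP/GMP, 10 and 3 for LT-HSC against MEP, 1 subfamily for CMP/GMP against MEP, and 0 transposase-derived genes for LT-HSC against MEP, where Thap3 had a log2 change of 1.71 (edgeR adjusted p = 0.137). It changed no other call or count by over 1.5 times. Shares of all TEs or genes called with the block were not computed.

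Class differences on the log2 scale were 0.014 per TE read and 0.024 per SINE and LINE read in CMP/GMP, −0.43 per SINE and LINE read in MEP, 0.0080 and 0.013 in c-kit+ Dnmt3a KO, 0.085 and 0.035 for double KO against Sting KO, 0.079 and 0.065 for LT-HSC against CMP/GMP, and −0.060 and −0.11 for LT-HSC against MEP.

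Leaving out 1 library, subfamily counts ran from 0 to 74 in MEP (families 0 to 8), 0 to 56 (0 to 8) in LT-HSC against CMP/GMP, 0 to 31 (0 to 7) in LT-HSC against MEP and 0 to 1 in CMP/GMP against MEP. CMP/GMP families ran from 0 to 4, the 4 without Dnmt3a KO replicate 3, and the test between populations from 0 to 36, the 36 without MEP Dnmt3a KO replicate 1. Transposase-derived genes ran from 0 to 4 in MEP, 0 to 1 in c-kit+ Sting KO, 0 to 1, 0 to 2 and 0 to 1 between populations. The other counts stayed at 0. Shares of all TEs called were computed only for the fits without MEP Dnmt3a KO replicate 1 or wild-type LT-HSC replicate 2.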
